A study of Mus musculus with 7 samples.

Results

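The H3K27me3 mark was described at 6 genes of heart and mesoderm development, Tbx5, Tbx3, Nkx2-5, Hand2, Tbx20 and Isl1, in adult mouse liver. The members were all islands (stretches of enriched chromatin) that reached within 75 kb of a given mm9 point for each gene. They came to 89 of the 122262 islands in the 7 deposited lists, between 10 and 15 in each liver. The points came with the choice of genes and were not checked against an mm9 annotation. The lists carry no expression values, so neither the silence of the 6 genes nor the liver label was tested here.

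Livers were from male CD-1 mice of the outbred ICR strain, 7 weeks old, 1 animal to a sample. The 3 vehicle mice were injected with 1% DMSO in corn oil, and the 4 TCPOBOP mice with TCPOBOP at 3 mg/kg. TCPOBOP is an agonist of the constitutive androstane receptor, which switches on genes of drug metabolism in hepatocytes. Tissue was taken 27 h after injection in both groups. Whole liver was used, so a mark on fewer cells and less of it on each cell could not be told apart.

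H3K27me3, trimethylated lysine 27 of histone H3, is laid down by Polycomb repressive complex 2 over genes that a tissue keeps off. Developmental transcription factors with CpG-rich promoters are its best known targets. Tbx5, Tbx3 and Tbx20 encode T-box factors, Nkx2-5 and Isl1 encode homeodomain factors and Hand2 encodes a basic helix-loop-helix factor. All act in the forming heart. Tbx5 and Hand2 also act in limb buds, Tbx3 in limb and mammary gland, and Isl1 in motor neurons and pancreatic islets.

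The promoters of 4 of the 6 genes were in the RefSeq promoter table (build GRCm38.p6, 250 bases before to 50 after the start of the gene). They are shown because CpG content is the sequence feature linked with Polycomb targets, and because the islands of Isl1 and Tbx20 carry the differences between livers described further on. CpG dinucleotides are in capitals. Positions were not carried over to mm9, so the promoters were not placed on the islands.
Isl1, chr13:116309639-116309938, minus strand: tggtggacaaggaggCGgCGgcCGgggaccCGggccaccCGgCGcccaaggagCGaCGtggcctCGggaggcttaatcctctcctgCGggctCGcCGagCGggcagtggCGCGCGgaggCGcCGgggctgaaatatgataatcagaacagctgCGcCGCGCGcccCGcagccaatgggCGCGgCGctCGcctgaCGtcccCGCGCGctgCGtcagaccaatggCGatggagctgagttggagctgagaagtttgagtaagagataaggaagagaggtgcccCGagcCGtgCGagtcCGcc
Tbx20, chr9:24774254-24774553, minus strand: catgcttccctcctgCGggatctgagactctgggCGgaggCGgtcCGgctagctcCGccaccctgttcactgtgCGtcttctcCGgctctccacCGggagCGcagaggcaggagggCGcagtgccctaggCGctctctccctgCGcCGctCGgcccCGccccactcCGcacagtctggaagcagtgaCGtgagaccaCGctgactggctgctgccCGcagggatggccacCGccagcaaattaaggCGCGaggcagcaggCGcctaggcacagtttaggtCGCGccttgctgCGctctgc
Hand2, chr8:57320733-57321032, plus strand: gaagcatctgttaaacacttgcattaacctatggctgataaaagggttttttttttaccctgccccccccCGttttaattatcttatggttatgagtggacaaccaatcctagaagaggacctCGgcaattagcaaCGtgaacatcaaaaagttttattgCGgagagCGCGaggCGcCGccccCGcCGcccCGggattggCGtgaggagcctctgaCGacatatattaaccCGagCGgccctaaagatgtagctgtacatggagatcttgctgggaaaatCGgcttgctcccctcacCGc
Nkx2-5, chr17:26841516-26841815, minus strand: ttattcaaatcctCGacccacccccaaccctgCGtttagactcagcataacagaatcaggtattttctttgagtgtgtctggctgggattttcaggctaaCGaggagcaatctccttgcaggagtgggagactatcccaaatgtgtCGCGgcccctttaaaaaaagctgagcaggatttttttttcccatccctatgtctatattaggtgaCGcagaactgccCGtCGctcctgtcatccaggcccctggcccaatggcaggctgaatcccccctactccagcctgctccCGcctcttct

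The Isl1 promoter held 37 CpGs in 300 bases, that of Tbx20 26, that of Hand2 17 and that of Nkx2-5 9. All 4 lay above the median of 7 CpGs over 32851 promoters of that length. As many CpGs or more were found in 5.58% of all promoters for Isl1, 16.9% for Tbx20, 31.4% for Hand2 and 45.8% for Nkx2-5. Among these 4 genes the order of CpG counts was not the order of cover. Isl1 and Tbx20 had the most CpGs of the 4 and the least cover.

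The lists held between 14167 and 20550 islands that spanned 537 to 605 Mb. They give no read numbers, so the depth is unknown. Vehicle replicate 1 had the fewest islands and the largest median width, 31.2 kb against 20.8 to 24.4 kb in the others. The smallest cover, 537 Mb, was that of replicate 2 in either group.

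Every one of the 6 windows held an island in every liver, in 42 of 42 cases. Of 17544 windows of 150 kb tiled along the chromosomes, 40.9% did so. The point itself lay under an island in all 7 livers for Tbx5, Tbx3, Nkx2-5, Hand2 and Isl1, and in 0 of 7 for Tbx20. Of the centres of tiled windows, 10.3% lay under an island in all 7. The loci were chosen with results of these data known, so these shares are a description.

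**Figure D1:**
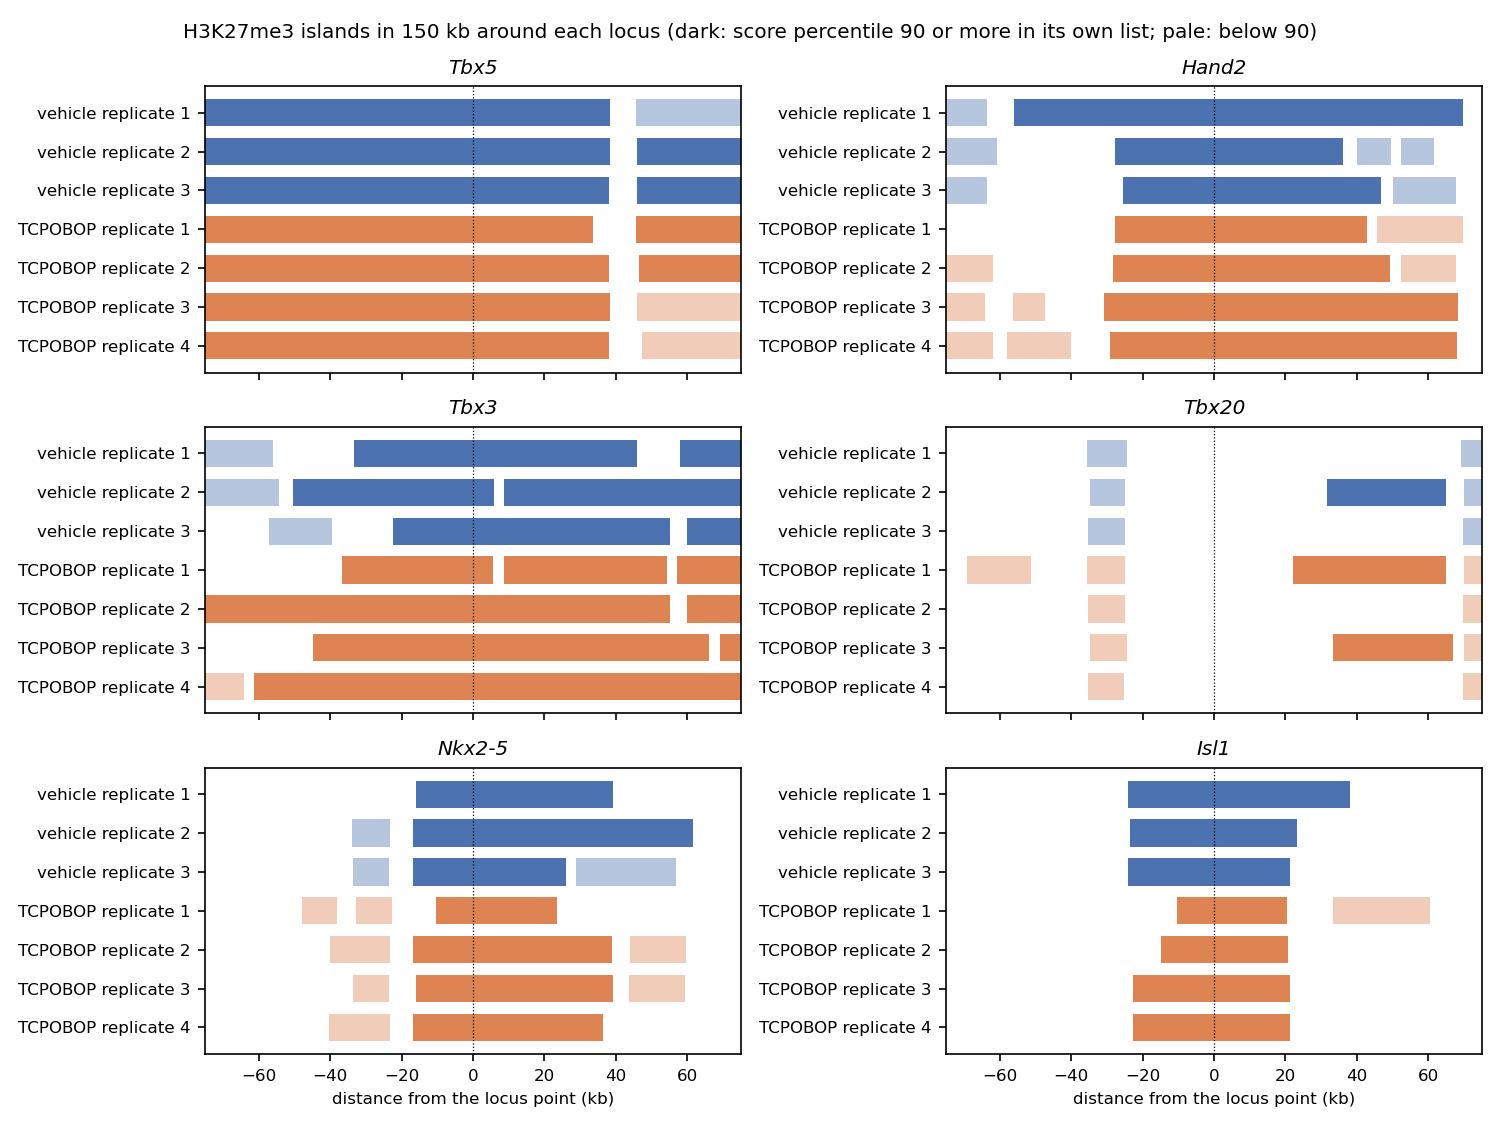
Islands in the 7 livers (rows) within 75 kb of each point (dotted line; x axis, distance in kb), blue for vehicle and orange for TCPOBOP. Dark bars are islands at or above score percentile 90 of their own list and pale bars are islands below it; the dark Tbx20 island is found in 3 livers only.

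Tbx5, which patterns the cardiac chambers and the forelimb, had the widest cover. Islands spanned 142.8, 142.4 and 142.0 kb of its 150 kb window (chromosome 5 from 120235001 to 120385000) in vehicle replicates 1 to 3. They spanned 138, 141.6, 142.4 and 140.8 kb in TCPOBOP replicates 1 to 4. The 7 livers lay close together and the groups overlapped. The mean cover was 94.9 ± 0.267% (SD, n = 3) with vehicle and 93.8 ± 1.28% (SD, n = 4) with TCPOBOP, a difference of -1.13% of the window (SE 1.85, 95% interval -5.42 to 3.15, limma adjusted p = 0.999). Limma fits a linear model to every window and steadies its variance with that of the others, and the p was adjusted over all windows tested.

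The Tbx5 window was split in the same way in all 7 livers. An island ended between 33.6 and 38.4 kb to the right of the point, and the next began between 45.6 and 47.2 kb. The stretch on chromosome 5 from 120348401 to 120355600, 7.2 kb long, was under no island in any liver. Left of it, 108.4 kb without a break were under islands in all 7. The island to the right of the stretch varied more, from 40 kb in vehicle replicate 1 to 208.8 kb in vehicle replicate 2 and 208.4 kb in TCPOBOP replicate 2.

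Tbx3, which represses chamber genes in the conduction system, is the neighbouring protein-coding gene of Tbx5 in RefSeq. Islands spanned 115.2, 143.2 and 110.2 kb of its window (chromosome 5 from 120045001 to 120195000) in vehicle replicates 1 to 3, and 105.8, 145.2, 116.6 and 147.2 kb in TCPOBOP replicates 1 to 4. The livers fell at both ends of this range in either group. The mean was 81.9 ± 11.9% (SD, n = 3) with vehicle and 85.8 ± 13.8% (SD, n = 4) with TCPOBOP (difference 3.89% of the window, SE 8.38, 95% interval -15.6 to 23.4, limma adjusted p = 0.999). The difference was -0.333% without vehicle replicate 3 and -0.222% without TCPOBOP replicate 4.

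The marks of the 2 neighbours ran together. In 6 of 7 livers the island over the Tbx5 point reached into the Tbx3 window, and in vehicle replicate 2 it began 98 kb left of the Tbx5 point, short of that window. In TCPOBOP replicate 4 a single island of 289.2 kb covered both points. In the other 6 livers the islands between the points were parted by gaps of 2.8 to 12 kb, so the number of islands here turned on small gaps. All of it merged over the livers into 1 region of 313.6 kb, chromosome 5 from 120034801 to 120348400, of which 81.1 to 99.0% was under islands in each liver. The widest island at Tbx3 is therefore the Tbx5 island in 6 livers, and the values of the 2 loci are not independent.

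Hand2, needed for the right ventricle, had islands over 137, 96.6 and 101.4 kb of its window (chromosome 8 from 59725001 to 59875000) in vehicle replicates 1 to 3. They spanned 94.4, 105.8, 119.4 and 128.2 kb in TCPOBOP replicates 1 to 4. The highest liver was a vehicle and the lowest a TCPOBOP liver, and the group means were 74.4 ± 14.7% (SD, n = 3) and 74.6 ± 9.93% (SD, n = 4). The difference of 0.189% of the window (SE 8.05, 95% interval -18.5 to 18.9, limma adjusted p = 0.999) turned negative under 5 other settings. It was also negative without vehicle replicate 2 (-4.83%), vehicle replicate 3 (-3.23%), TCPOBOP replicate 3 (-1.47%) or TCPOBOP replicate 4 (-3.42%). The last value is also that of 1 of the 5 settings, in which livers of the same replicate number were compared.

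Around the Hand2 point, 61.6 kb were under islands in all 7 livers (chromosome 8 from 59774401 to 59836000). In vehicle replicate 1 the island was 125.6 kb wide, from 56 kb left to 69.6 kb right of the point. In the other 6 livers it was 63.6 to 99.2 kb wide. Smaller islands lay right of it in vehicle replicates 2 and 3 and TCPOBOP replicates 1 and 2. In TCPOBOP replicates 3 and 4 the island itself reached 68.4 and 68 kb right of the point. In these 2 livers a smaller island lay between 58 and 40 kb left of the point. Between 40 and 30.8 kb left of the point only vehicle replicate 1 had an island. A further island at the left edge of the window was found in 6 livers and not in TCPOBOP replicate 1.

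Nkx2-5, an early gene of cardiac progenitors, had 55.2, 89.2 and 80.8 kb of its window (chromosome 17 from 26905001 to 27055000) under islands in vehicle replicates 1 to 3, and 54, 88, 80.8 and 70.4 kb in TCPOBOP replicates 1 to 4. The lowest values were those of replicate 1 in both groups. The means were 50.04 ± 11.8% (SD, n = 3) and 48.9 ± 9.84% (SD, n = 4), a difference of -1.18% of the window (SE 7.86, 95% interval -19.4 to 17.1, limma adjusted p = 0.999). The direction rested on single livers, with a difference of 3.53% without vehicle replicate 2, 0.733% without vehicle replicate 3 and 3.11% without TCPOBOP replicate 1.

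The Nkx2-5 island had a steady left edge and an unsteady right one. The left edge lay 16.0 to 16.8 kb left of the point in 6 livers and 10.4 kb left in TCPOBOP replicate 1. The right edge lay between 23.6 and 61.6 kb right of the point. The part on chromosome 17 from 26969601 to 27003600, 34 kb long, was under an island in all 7 livers. A separate island further left was found in 6 livers and not in vehicle replicate 1. It ended between 22.8 and 23.6 kb left of the point in each of the 6.

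Isl1, a marker of the second heart field, had a single island in 6 of 7 livers. Islands spanned 62, 46.8 and 45.2 kb of the window (chromosome 13 from 117015001 to 117165000) in vehicle replicates 1 to 3, and 58, 35.6, 44 and 44 kb in TCPOBOP replicates 1 to 4. The groups overlapped through TCPOBOP replicate 1, which had a second island of 27.2 kb at score percentile 12.7 of its list. The mean cover was 34.2 ± 6.18% (SD, n = 3) with vehicle and 30.3 ± 6.19% (SD, n = 4) with TCPOBOP (difference -3.96% of the window, SE 5.73, 95% interval -17.2 to 9.31, limma adjusted p = 0.999).

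The island over the Isl1 point was narrower in each TCPOBOP liver than in any vehicle liver. Its width was 62, 46.8 and 45.2 kb in vehicle replicates 1 to 3 and 30.8, 35.6, 44 and 44 kb in TCPOBOP replicates 1 to 4. The nearest livers of the 2 groups were 1.2 kb apart, or 3 of the 400 bp windows from which the caller SICER builds islands. The means were 51.3 ± 9.27 kb (SD, n = 3) and 38.6 ± 6.54 kb (SD, n = 4), a difference of -12.7 kb (two-sided exact permutation p = 0.0286, the smallest that 35 splits allow). This was 1 of 6 loci, and no p was adjusted over the genome for it. The background was the 10593 tiled windows with an island in at least 2 livers in which the widest island varied. A liver without an island there entered with no width, so not all of these windows are like Isl1. The widest island was wider in every vehicle liver than in every TCPOBOP liver in 2.77%, and the groups did not overlap in 4.06%.

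On average both edges lay closer to the point with TCPOBOP. The Isl1 island began 23.6 to 24.0 kb left of the point in the 3 vehicle livers and 10.4 to 22.8 kb left in the 4 TCPOBOP livers. It ended 21.2 to 38 kb right of the point with vehicle and 20.4 to 21.2 kb right with TCPOBOP. On average the island reached 23.9 kb to the left and 27.5 kb to the right with vehicle, and 17.7 kb and 20.9 kb with TCPOBOP. Right edges of the groups met at 21.2 kb, and the vehicle mean rests on the 38 kb of replicate 1. The widest of the 7, in vehicle replicate 1, belonged to the list with the widest islands in all. Without that liver the difference was -7.40 kb (exact permutation p = 0.133). The part on chromosome 13 from 117079601 to 117110400, 30.8 kb long, was under the island in all 7 livers. Median island widths of whole lists ran from 23.6 to 31.2 kb with vehicle and from 20.8 to 23.6 kb with TCPOBOP, and their part in the Isl1 result was not tested.

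**Figure D2:**
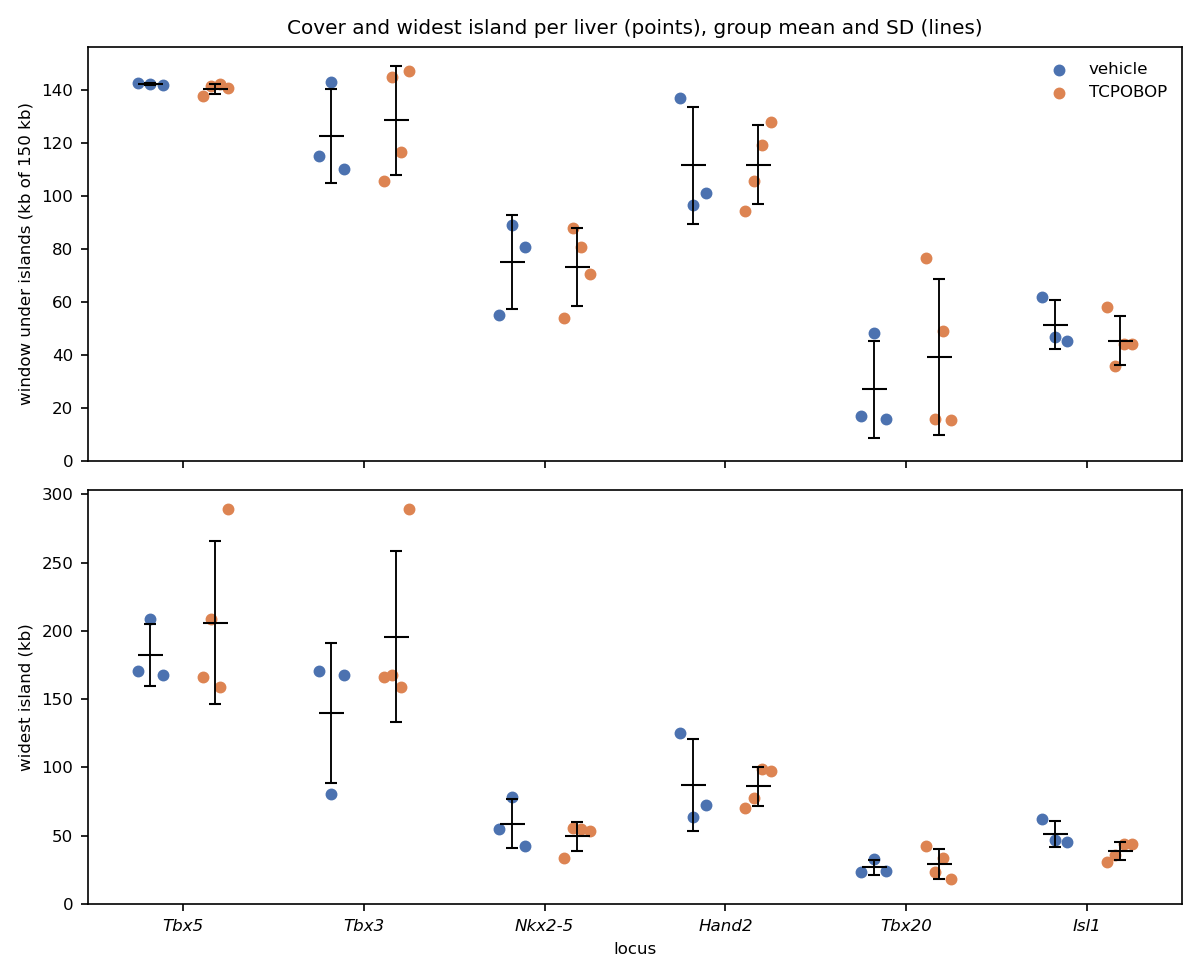
Kilobases of the 150 kb window under islands (upper panel) and width of the widest island that reaches the window (lower panel, kb) for each locus. Points are livers, blue for vehicle (n = 3) and orange for TCPOBOP (n = 4), and lines are the mean and SD; the groups overlap at every locus except for the widest island at Isl1, 45.2 to 62 kb against 30.8 to 44 kb.

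Tbx20, required for growth of the heart tube, differed from the other 5 in how its islands were placed around the given point. That point was not checked against an mm9 annotation, so where the gene starts among these islands is not known. Islands spanned 17, 48.2 and 15.8 kb of the window (chromosome 9 from 24455001 to 24605000) in vehicle replicates 1 to 3, and 76.6, 15.8, 49 and 15.4 kb in TCPOBOP replicates 1 to 4. The cover was 15.4 to 17 kb in 4 livers and 48.2 to 76.6 kb in 3, and livers of both groups were found at either level. The mean cover was 18.0 ± 12.2% (SD, n = 3) with vehicle and 26.1 ± 19.7% (SD, n = 4) with TCPOBOP (difference 8.13% of the window, SE 11.3, 95% interval -18.0 to 34.3, limma adjusted p = 0.999). Without TCPOBOP replicate 1 the difference was -0.178%.

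One island set the high livers apart. Vehicle replicate 2 had an island of 33.2 kb from 31.6 to 64.8 kb right of the point, TCPOBOP replicate 1 one of 42.8 kb from 22 to 64.8 kb, and TCPOBOP replicate 3 one of 33.6 kb from 33.2 to 66.8 kb. Their score percentiles were 92.4, 95.4 and 91.1. The lists of the other 4 livers had no island in this stretch, chromosome 9 from 24552001 to 24596800. The lists give no signal outside islands, so the level of the mark there in those 4 livers was not measured.

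On either side of this stretch 1 island was found in all 7 livers. TCPOBOP replicate 1 alone had a further island, of 18 kb, from 69.2 to 51.2 kb left of the point. An island from between 35.6 and 34.8 kb to between 25.2 and 24.4 kb left of the point was found in all 7, and so was one that began 69.2 to 70 kb right of it. Between them, 46.4 kb including the point were under no island in any liver. Regions found in some livers only were rarely of high score. Of the 1411 merged regions with islands in 3 livers, 2 had every island at or above score percentile 90, the Tbx20 region among them, and of the 10770 with islands in 1 to 6 livers 9 did. This bound was chosen after the values at Tbx20 had been seen. Among the 6624 regions found in all 7 livers the share was 10.9%.

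The order of the loci by mean cover was Tbx5, Tbx3, Hand2, Nkx2-5, Isl1 and Tbx20, at 141, 126, 112, 74.1, 47.9 and 34.0 kb over 7 livers. Only Hand2 and Nkx2-5 were neighbours in this order whose ranges stood apart, 94.4 to 137 kb against 54 to 89.2 kb. Tbx5 was above Tbx3 in 4 of 7 livers, Tbx3 above Hand2 in 5, Nkx2-5 above Isl1 in 5 and Isl1 above Tbx20 in 4. In all 7 livers Tbx5, Tbx3 and Hand2 held the first 3 places. Cover summed over the 6 windows was 529, 566 and 495 kb in vehicle replicates 1 to 3 and 527, 532, 552 and 546 kb in TCPOBOP replicates 1 to 4, and the 4 TCPOBOP livers lay inside the range of the vehicle livers.

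Set among windows with an island in all 7 livers, the loci spread over nearly the whole range of cover. Mean cover stood at percentile 96.6 of these 7178 windows for Tbx5, 89.2 for Tbx3, 80.8 for Hand2, 55.8 for Nkx2-5, 31.7 for Isl1 and 17.6 for Tbx20. Their median cover was 45.0%, and 3 of the 6 windows were well above it, Nkx2-5 was near it at 49.4%, and Isl1 and Tbx20 were below it at 32.0% and 22.6%.

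**Figure D3:**
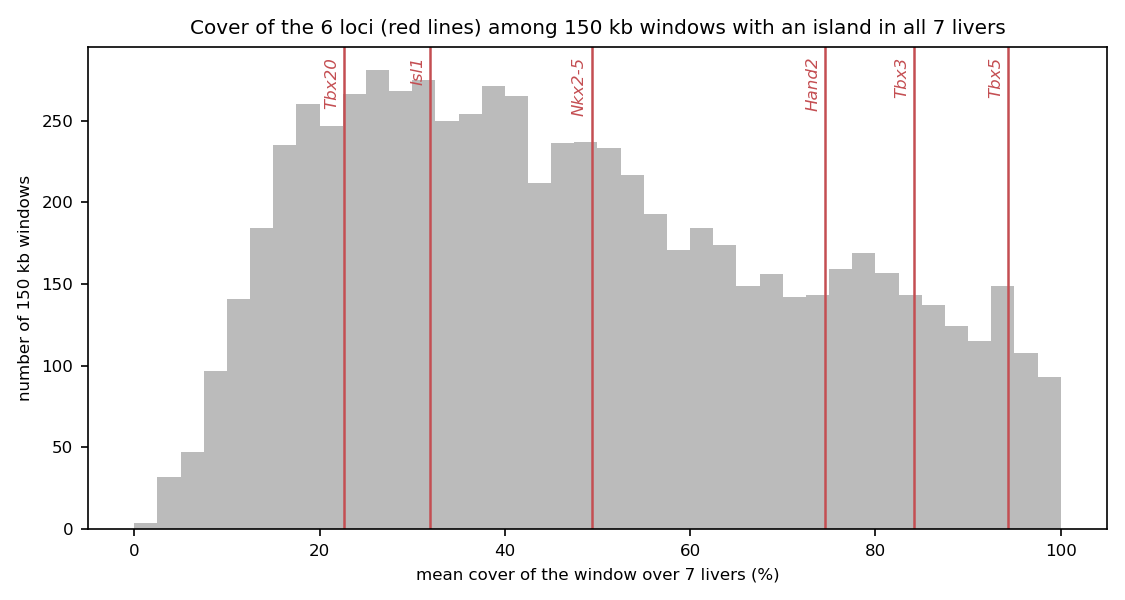
Number of 150 kb windows (y axis) by mean cover over 7 livers in percent (x axis), for the 7178 tiled windows with an island in all 7 livers. Red lines mark the 6 loci, from Tbx20 at 22.6% to Tbx5 at 94.3%.

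By score, the authors' own value for an island, the loci ranked high in their lists with the exception of Tbx20. The best island at Tbx5 stood at percentile 99.4, 99.4 and 99.7 in vehicle replicates 1 to 3 and 99.7, 99.7, 99.6 and 99.9 in TCPOBOP replicates 1 to 4. Its highest rank by score was 17, in TCPOBOP replicate 4, and its lowest was 96, in vehicle replicate 2. The best island at Hand2 stood between percentile 97.8 and 99.1, that at Nkx2-5 between 94.3 and 97.6 and that at Isl1 between 91.6 and 95.5. At Tbx20 it stood between 35.7 and 55.0 in the 4 livers without the island described above.

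The score grows with width, and per 400 bp window it told the loci apart less. The best island at each of the 6 loci had a score per window between percentile 90.2 and 99.7 of its own list, in 42 of 42 cases. Over the tiled windows with an island in all 7 livers, the best island was at or above percentile 90 in all 7 in 7.31%, and in 19.2% of single cases, a bound chosen after the values were seen. Tbx5 and Tbx3 share this island in 6 livers. The mean over 7 livers was highest at Nkx2-5, 98.4 with a range of 95.9 to 99.7, where the best island was 34 to 78.4 kb wide, against 136 to 289 kb at Tbx5. The small Tbx20 island left of the point, the best one in 4 livers, stood between 90.9 and 96.7. Islands other than the best one were often less dense, such as the one of 208.8 kb right of the Tbx5 point in vehicle replicate 2, at percentile 83.2, or the second Isl1 island of TCPOBOP replicate 1, at 0.0487.

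**Figure D4:**
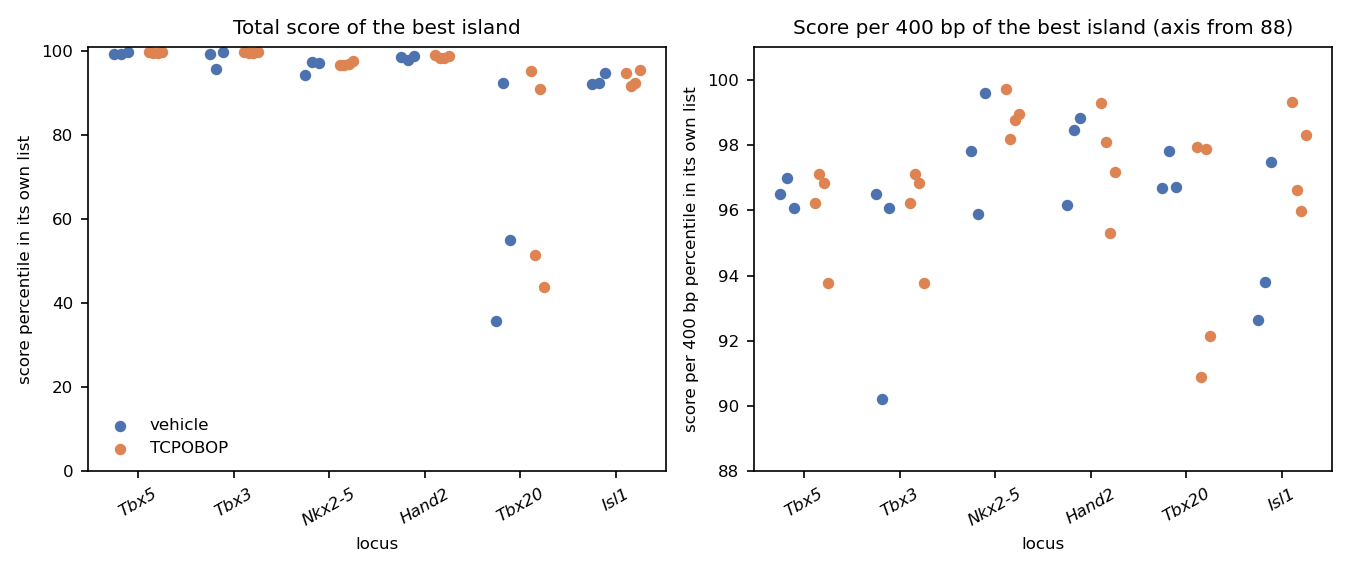
Percentile of the best island of each locus within its own list (y axis), by total score (left) and by score per 400 bp window (right, axis from 88), for vehicle (blue, n = 3) and TCPOBOP (orange, n = 4). Tbx20 falls to 35.7 by total score, and all 42 values by score per window lie between 90.2 and 99.7.

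The groups overlapped in cover and in score percentile at each of the 6 loci. Of the 6 windows 0 passed the limma test (adjusted p = 0.999 for each), and 0 had an unadjusted p under 0.05. Over the 10588 tiled windows tested with them 0.00% were called and 3.40% had an unadjusted p under 0.05. Groups without overlap in cover were found at 0 of 6 loci and in 3.87% of tiled windows. For the score percentile of the best island the count was 0 of 6 against 3.59%, and for the number of islands 0 of 6 against 1.55%. These shares are over tiled windows with an island in at least 2 livers, and a liver without an island entered at the lowest value. The mean cover was higher with TCPOBOP at 3 loci and lower at 3.

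The mean score percentile of the best island was higher with TCPOBOP at all 6 loci, by 0.215 at Tbx5, 1.44 at Tbx3, 0.670 at Nkx2-5, 0.228 at Hand2, 9.43 at Tbx20 and 0.430 percentile points at Isl1. None passed the test. The share of tiled windows with a higher mean with TCPOBOP is not reported here. Tbx5 and Tbx3 share their best island in 6 livers, so these are not 6 separate cases. The direction did not hold at Tbx5 and Tbx3 when only islands with at least 50% of their length inside the window counted (-4.78 and -18.3 points). At both loci this rule dropped the top-scored island of TCPOBOP replicate 4, 289.2 kb wide. Without vehicle replicate 1 the direction turned at Nkx2-5 (-0.359), Tbx20 (-3.22) and Isl1 (-0.0166). It also turned without TCPOBOP replicate 4 at Isl1 (-0.194), and without vehicle replicate 2 at Hand2 (-0.0830). The smallest exact permutation p was 0.0857, at Tbx3, where the best island in 6 livers is that of Tbx5. A percentile higher in every TCPOBOP liver was also more frequent over the tiled windows, 2.88%, than one higher in every vehicle liver, 0.708%. These were windows with an island in at least 2 livers, and a liver without an island entered as lowest. Numbers of islands ran higher with TCPOBOP, 16481 to 20550 against 14167 to 17852, but the ranges overlapped. With lists of equal total length, which need not hold equal numbers of islands, the differences were 0.222 at Tbx5, 1.44 at Tbx3, 0.687 at Nkx2-5, 0.156 at Hand2, 12.8 at Tbx20 and 0.178 at Isl1. The part of island number was not tested.

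The islands of the 6 loci merged over the livers into 11 regions. An island was present in all 7 livers in 7 of them (63.6%), in 6 livers in 2, in 3 livers in 1 and in 1 liver in 1. Over all 17394 merged regions the share with an island in all 7 was 38.1%. The region found in 1 liver lay at Tbx20, in TCPOBOP replicate 1. Of the 10 regions with an island in at least 2 livers, 0 passed the limma test (lowest adjusted p = 1.00, with 0.00% called among 13988 regions and 3.87% at an unadjusted p under 0.05).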

How the data were processed

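H3K27me3 was measured by chromatin immunoprecipitation and sequencing in 7 livers. The build was mm9 and the tools were SICER 1.1 and Bowtie2 2.3.2, per the submitters' processing notes. The authors deposited 1 list of islands for each liver, with a score for each island, and did not pool livers. Per the file names, the window was 400 bp, the gap 2400 bp and the E-value 100. Input and duplicate handling: not given in the sources used here. Because the score grows with width and depth, it was used only for ranks within a list. A region without an island means only that the list used here has none there.

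Groups and replicate numbers came from the sample titles. An island counted for a locus if it overlapped the window, 75 kb to each side of the point, by at least 1 bp, and widths are those of whole islands. The best island is the one with the highest score. Limma 3.58.1 in R 4.3.3, with robust and trended variance, compared the covered fraction of windows over all tiled windows of the same length plus the 6 loci, where at least 2 livers had an island and the fraction varied. Benjamini-Hochberg adjustment ran over all of them, with a threshold of 0.05. Merged regions were tested alike. Widths, percentiles and island numbers were compared by two-sided exact permutation over 35 splits of 7 livers (smallest p 0.0286). The code was tested on simulated losses for the size of the difference. How often limma would call such a loss is not reported here. Other steps used Python 3.11.15 and NumPy 2.4.6. Promoters and gene order are from RefSeq GRCm38.p6. Other heart regulators and liver markers were not analysed here, since no mm9 annotation was used. All 6 genes are described; they and the tests were chosen with earlier results of these data known.

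Alternatives were windows of 50 and 100 kb to each side, a stricter score, lists of equal length, another overlap rule, limma without trend and robust variance, windows with an island in at least 1 liver, a replicate block and leaving out each liver.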

Additional observations from a re-analysis of the deposited data

Results flagged for a closer look

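Among 18 sets of TCPOBOP values (cover, widest island and score percentile at 6 loci), 2 had a single liver well apart from the rest, which chance alone gives in about 1 in 20 sets. At Tbx3 the widest island was 289.2 kb in TCPOBOP replicate 4, where it joined the Tbx3 and Tbx5 points, against 159.2 to 168 kb in the other TCPOBOP livers. At Nkx2-5 the widest island was 34 kb in TCPOBOP replicate 1, against 53.2 to 55.6 kb in the others; its list had the most and narrowest islands of the 7.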

How the results depend on the processing

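None of the 6 loci passed the limma test of cover under any alternative, and none of the 10 merged regions tested at these loci did. Over all merged regions limma without trend and robust variance called 10 upward and 3 downward, none of them at these loci. Differences in cover are in percent of the window. That of Hand2 turned to -0.567 with 50 kb and -3.05 with 100 kb to each side, -2 without the lowest 25% of islands by score, -3.18 with lists of equal length and -3.42 with the replicate block. With the block that of Tbx3 turned to -0.222. TCPOBOP replicate 4 has no vehicle liver of the same number. In cover, width and percentile, each difference with the block is therefore that found without this liver, not a separate result. Leaving out 1 liver gave -0.333 to 10.7 for Tbx3, -7.80 to 3.53 for Nkx2-5, -4.83 to 8.63 for Hand2 and -0.178 to 15.2 for Tbx20. The groups did not overlap in cover at 1 locus, Isl1, with the stricter score and with lists of equal length (3.96% and 4.02% of tiled windows). Leaving out 1 liver gave 0 to 1 loci (Isl1 without TCPOBOP replicate 1, Tbx5 without TCPOBOP replicate 3). The share of tiled windows was not computed for these smaller sets of livers, in which groups separate more easily by chance.

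For the widest island, counting only islands with at least 50% of their length inside the window turned the difference to -24.4 kb at Tbx5 and -1.47 kb at Tbx3. In TCPOBOP replicate 4 this rule dropped the island of 289.2 kb at both loci. The replicate block turned the difference to -4.40 kb at Tbx5. Leaving out 1 liver gave -4.40 to 38.9 kb at Tbx5, -17.3 to 0.5 kb at Nkx2-5, -12.9 to 18.1 kb at Hand2 and -1.87 to 6.40 kb at Tbx20. The Isl1 difference of -12.7 kb kept its value and p under the 5 alternatives of window, score and overlap. The same islands were measured each time, since they lie within 50 kb of the point and rank high by score. These alternatives are therefore no separate support. The difference was -15.8 to -7.40 kb without 1 liver and -14.5 kb with the block (exact permutation p = 0.25), designs too small to pass.

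For the score percentile, the overlap rule turned the difference to -4.78 points at Tbx5 and -18.3 at Tbx3, and the block to -0.194 at Isl1. Leaving out 1 liver gave -0.359 to 1.23 at Nkx2-5, -0.0830 to 0.399 at Hand2, -3.22 to 25.1 at Tbx20 and -0.194 to 1.26 at Isl1. The causes of these reversals were not tested. Same-numbered livers deviated from their group means with correlations of 0.0966, 0.455 and 0.133 over windows, and vehicle replicates 1 and 3 correlated better with another number, so the numbers were not taken as pairs; the block changed no call in cover.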
